A study of Mus musculus with 8 samples.

Results

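The 8 genes described here encode the fasting regulator of hepatic fatty acid oxidation (Ppara), the carnitine palmitoyltransferases (Cpt1a, Cpt2), enzymes of mitochondrial and peroxisomal β-oxidation (Acadm, Acadl, Hadha, Ehhadh) and the hormone Fgf21. They were taken by name from the fatty acid oxidation and ketogenesis pathway, as 8 of 21938 protein-coding genes, with earlier results of these data known. Every region of the deposited lists overlapping their bodies or lying within 10 kb of them was collected. The regions came from ATAC-seq, in which a transposase inserts sequencing adapters into accessible DNA, of nuclei from frozen adult liver. Of 8 libraries, each made from 50000 nuclei, 4 were control and 4 Alb-D2KO, and the mice were C57BL/6 in the labels and C57BL/6J in the methods of the study. Alb-D2KO mice carry floxed Dio2 alleles, the gene of the type 2 deiodinase that activates thyroxine, and a Cre recombinase driven by the albumin promoter. The deletion is therefore directed at hepatocytes, while the nuclei came from whole liver. Control libraries are titled "cre". The age of the mice beyond adult is not given in the sources used here.

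Fatty acids enter the mitochondrial matrix as carnitine esters. Cpt1a makes the ester at the outer membrane, which is the controlled step, and Cpt2 turns it back into an acyl-CoA at the inner membrane. Acadm and Acadl, the medium-chain and long-chain acyl-CoA dehydrogenases, begin each round of β-oxidation, and Hadha, the alpha subunit of the trifunctional protein, carries it on. Ehhadh is a bifunctional enzyme of the peroxisome. Ppara encodes a nuclear receptor that binds fatty acids and pairs with a retinoid X receptor on a DR1 site, a direct repeat of AGGTCA with 1 base between. In fasted liver it drives transcription of many of these genes, including Fgf21. Thyroid hormone receptors favour DR4 sites, with 4 bases between the repeats, and Cpt1a is a known target of thyroid hormone.

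The data were 2 lists of regions on the mm10 build. One held 8031 regions with reduced chromatin accessibility (RCAs), which were open in control liver and absent from the Alb-D2KO call, and the other held 250 regions found only in the Alb-D2KO call. A region is given with an AUC, the area under its −log10 p signal, which grows with width and strength, and with the −log10 q at its summit. The libraries of a genotype had been pooled into a single call, so no region has a value per animal or a replicate error, no p-value can be given, and the shares below are descriptions with intervals for counting error over genes or regions only. The study reports that calling on single libraries gave only a few regions, which its authors judged not to reflect accessibility. Those regions were excluded before the pooled call, so the RCAs have no support from single libraries. The lists hold no read counts, and depth per library is unknown. A region on the first list was not called in Alb-D2KO liver, which a signal just under the calling threshold would also give. The lists cannot tell such a region from a closed one. The study called fewer open regions in Alb-D2KO liver than in control liver. Fewer nuclei with an open site and a less open site in every nucleus cannot be told apart in these bulk samples. No region of either list was within 10 kb of Dio2 itself, so the lists do not check the deletion.

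RCAs lay at 4 of the 8 genes. Ppara had 5, Cpt1a had 4, Cpt2 had 3 and Fgf21 had 1, in all 13 regions. Acadm, Acadl, Hadha and Ehhadh had none within 10 kb. The share of genes with at least 1 RCA was 50% (95% Wilson interval 21.5% to 78.5%, n = 8), while 25.1% of the 21938 protein-coding genes had at least 1, and that share lies inside the interval. At least 3 RCAs were found at 3 of the 8 genes and at 3.79% of protein-coding genes. Cpt2, among these 3, keeps only 1 RCA if each region counts for its nearest protein-coding gene alone. The share of 3.79% was not recounted in that way. The mean number of RCAs was 1.63 per member gene and 0.411 per protein-coding gene, with medians of 0.5 and 0. None of the 250 regions open only in Alb-D2KO liver lay within 10 kb of a member, against 1.01% of protein-coding genes with such a region. For a count of 0 of 8 genes, the approximate rule of 3 divided by the number of genes allows a share of up to 37.5%. That bound is rough for so few genes. The nearest such region was 1.41 Mb away from Fgf21, and for the other members it lay between 2.11 Mb (Ehhadh) and 57.8 Mb (Cpt1a) away. The background covers all protein-coding genes, whatever their activity in liver, which was not measured here.

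**Figure D1:**
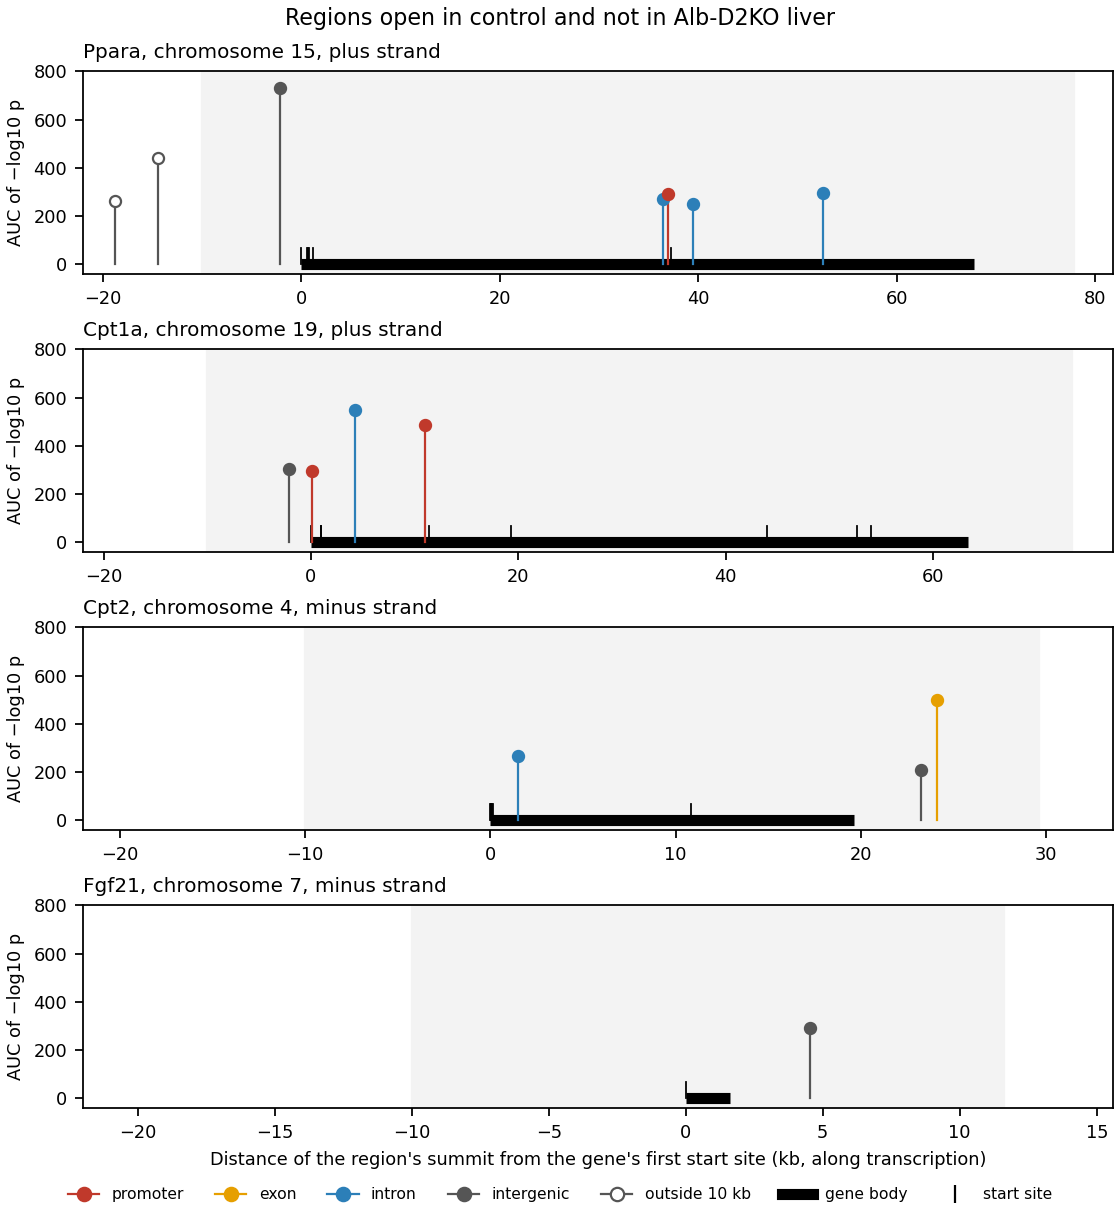
RCAs at the 4 genes that had any within 10 kb. The x axis is the distance of the summit from the first start site in kb, along transcription, the y axis is the AUC of −log10 p, stems are coloured by class, black bars are gene bodies with ticks at annotated start sites, grey shading marks the body and 10 kb on each side, and hollow points lie outside it. The tallest stem, with an AUC of 729.8, stands upstream of Ppara, and the 4 RCAs of Cpt1a gather in the first part of the gene.

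The sequences around 6 of these summits are shown because they are the DNA that the counts at Ppara, Cpt1a, Cpt2 and Fgf21 rest on. They are printed from the GRCm38.p6 (mm10) genome, plus strand, 5′ to 3′, with 60 bases on each side of the summit and in lower case. Capitals mark matches to DR1 or DR4 with up to 2 mismatches, or, without mismatch, to the AGGTCA hexamer, to a GC box (GGGCGG), to a C/EBP core (TTGCNNAA) or to an E-box (CACGTG), on either strand. The upstream part of the Cpt1a promoter region, from its edge to the base before the first start site, is added.
Ppara, upstream RCA, chr15:85732778-85732898: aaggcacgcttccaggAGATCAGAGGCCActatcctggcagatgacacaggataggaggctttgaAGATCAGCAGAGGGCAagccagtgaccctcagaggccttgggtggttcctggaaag
Ppara, RCA at the internal start, chr15:85771878-85771998: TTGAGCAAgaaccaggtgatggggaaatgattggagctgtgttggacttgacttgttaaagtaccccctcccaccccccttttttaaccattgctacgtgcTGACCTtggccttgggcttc
Ppara, last intronic RCA, chr15:85787516-85787636: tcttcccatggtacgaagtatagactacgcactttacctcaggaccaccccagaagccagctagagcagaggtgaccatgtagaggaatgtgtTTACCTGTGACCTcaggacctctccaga
Cpt1a, promoter RCA upstream part, chr19:3322216-3322333: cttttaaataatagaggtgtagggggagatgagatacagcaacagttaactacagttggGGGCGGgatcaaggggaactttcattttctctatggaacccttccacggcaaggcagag
Cpt1a, intronic RCA, chr19:3326531-3326651: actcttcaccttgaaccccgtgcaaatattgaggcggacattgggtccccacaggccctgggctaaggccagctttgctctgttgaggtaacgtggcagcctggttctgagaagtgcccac
Cpt2, intronic RCA, chr4:107922071-107922191: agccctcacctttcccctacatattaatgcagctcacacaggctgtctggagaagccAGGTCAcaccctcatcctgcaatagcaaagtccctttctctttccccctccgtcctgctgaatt
Fgf21, downstream RCA, chr7:45610904-45611024: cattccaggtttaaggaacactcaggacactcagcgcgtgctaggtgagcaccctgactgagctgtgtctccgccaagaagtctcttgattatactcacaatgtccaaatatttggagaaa

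Ppara, the receptor gene, lies on chromosome 15 from 85734983 to 85802819 on the plus strand and carried the most RCAs of the 8 genes. The largest was intergenic, 1139 bp wide, from 85731918 to 85733056, with its edge 1927 bp upstream of the first start site. Its AUC of 729.8 ranked 58 among the 8031 RCAs, and its summit −log10 q was 3.07. The other 4 RCAs of Ppara were all inside the gene, with summits 36444 bp to 52593 bp past the first start, and all had lower AUCs. An intronic region from 85771284 to 85771618 had an AUC of 269, and the next, from 85771763 to 85772289, had an AUC of 292. The latter was of the promoter class, meaning that it lay within 200 bp of an annotated start site, here the internal start at 85772214, which is 37231 bp past the first start and belongs to a transcript annotated without a coding sequence. Intronic regions from 85774363 to 85774769 and from 85787492 to 85787802 had AUCs of 251 and 296. The summit −log10 q of these 4 regions ran from 2.46 to 3.12. No RCA overlapped the cluster of start sites at the 5′ end of Ppara.

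The authors' caller numbered the open regions of control liver along the chromosomes, and a number absent from the list is read here as a control region that was not among the RCAs. This gives a count of the control regions between neighbouring RCAs, although not their places. Of all control numbers up to the highest on the list, 35.9% were RCAs. At Ppara, the 4 RCAs inside the gene had consecutive numbers, so no other control region was called among them. Between the upstream RCA and the first of them, a stretch of 38.2 kb that holds the 5′ start sites, exactly 1 control region was not on the list. From the upstream RCA to the last, 5 of 6 control regions were RCAs, a count whose ends are RCAs by construction. Another 2 RCAs lay just outside the window of 10 kb, 14088 bp and 18664 bp upstream of the gene, with AUCs of 441 and 263, and their numbers run on without a gap into that of the upstream RCA. The only protein-coding neighbour within 10 kb of Ppara was Cdpf1. Among the 1550 protein-coding genes with a length within 20% of that of Ppara, 30.5% had an RCA within 10 kb and 18 (1.16%) had 5 or more.

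Cpt1a, on chromosome 19 from 3322334 to 3385733 on the plus strand, had the second largest number, and its RCAs differed in place from those of Ppara. All 4 summits lay between −2094 bp and 11021 bp from the first start site, and none was in the remaining body of this 63400 bp gene. The region from 3322216 to 3322572 covered the first start site itself, including 5′ UTR. Its AUC was 294, and −log10 q at the summit was 2.87. An intergenic region upstream of it, from 3320162 to 3320439, had an AUC of 304. The strongest RCA at Cpt1a was intronic, from 3326281 to 3326839, with an AUC of 547 (rank 297) and a −log10 q of 3.61, the highest of the 13 member regions. The last, from 3333075 to 3333604, was intronic as well and fell into the promoter class because its edge was 121 bp from an internal start site at 3333725, with an AUC of 487 (rank 518). Between the RCA at the first start and the strongest one, within 3.71 kb, 2 control regions were not on the list, and that stretch holds the start sites at 3323285 and 3323348. From the first to the last RCA, 4 of 6 control regions were RCAs, the ends again by construction. Among 1593 genes of similar length, 30.1% had an RCA within 10 kb and 37 (2.32%) had 4 or more.

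Cpt2 is a minus-strand gene of chromosome 4, from 107903981 to 107923610. Of its 3 RCAs, the intronic region from 107921971 to 107922252 was the only one inside the gene, with an AUC of 266 and a summit 1479 bp past the first start. The others lay beyond the 3′ end. A region from 107899266 to 107899787 had an AUC of 498 (rank 458) and was 4194 bp from Cpt2, in an untranslated exon of the neighbouring gene 0610037L13Rik. The region from 107900291 to 107900506 was intergenic, with an AUC of 209, the lowest of the 13, and was also closer to 0610037L13Rik (907 bp) than to Cpt2 (3475 bp). Counting each region only for its nearest protein-coding gene would leave Cpt2 with 1 RCA. The 3 regions had consecutive numbers, so no control region outside the list lay between them, a stretch that covers most of the Cpt2 body. In the 102 kb from the intronic RCA onwards, which includes the Cpt2 start site, 1 control region was not an RCA. Of 2403 genes of similar length, 26.9% had an RCA and 74 (3.08%) had 3 or more.

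Fgf21, a short minus-strand gene of 1605 bp (chromosome 7, from 45613886 to 45615490), had 1 RCA. It was intergenic, from 45610799 to 45611287, 2599 bp past the 3′ end of the gene, with an AUC of 292 and a −log10 q of 2.74. Fgf21 was the nearest protein-coding gene to it, although Fut1 and Izumo1 also come within 10 kb of Fgf21. Of 504 genes of similar length, 19.6% (95% Wilson interval 16.4% to 23.3%) had an RCA within 10 kb, so a single region is not unusual at a gene this short.

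Acadm, Acadl and Hadha, of mitochondrial β-oxidation, and Ehhadh, of the peroxisome, had no RCA in their windows. For Ehhadh (chromosome 16, from 21761287 to 21787807, minus strand) the nearest was 27288 bp away. The nearest RCA to Acadl (chromosome 1, from 66830839 to 66863277, minus strand) was 139 kb away and that to Hadha (chromosome 5, from 30118304 to 30155162, minus strand) 188 kb away. Acadm (chromosome 3, from 153922357 to 153944632, minus strand) lay 2076 kb from the nearest RCA. Control regions not on the list were called in each of these gaps between RCAs, 3 over 265 kb around Ehhadh, 5 over 1822 kb around Acadl, 11 over 1930.5 kb around Hadha and 23 over 6185 kb around Acadm. Whether any of them lay at the start sites of these genes cannot be read from the numbers. Between 26.0% and 28.4% of genes of similar length had an RCA within 10 kb, so most genes of these lengths had none, as these did.

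**Figure D2:**
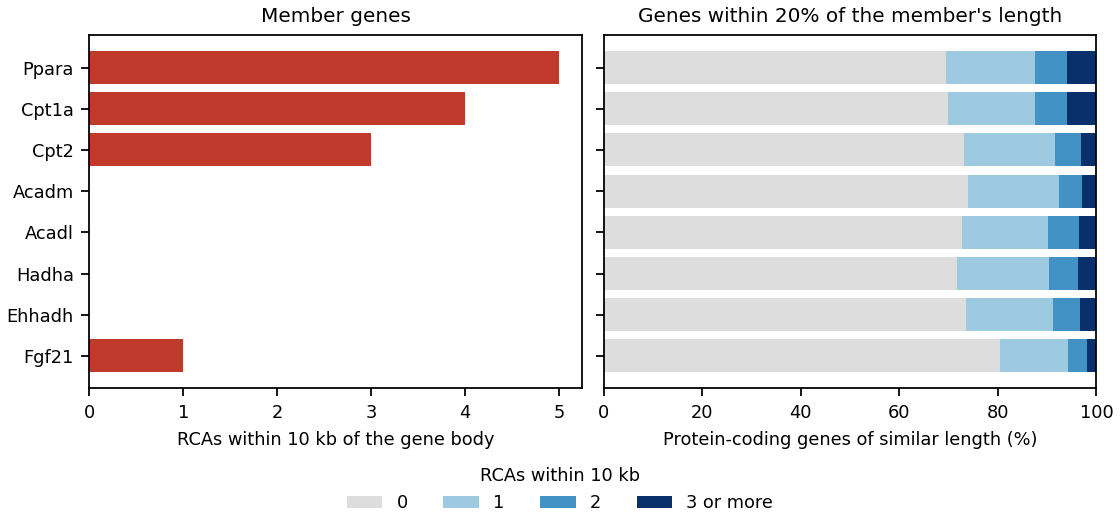
RCAs within 10 kb of each member gene (left, count) and, for protein-coding genes within 20% of the member's length, the percentage with 0, 1, 2, and 3 or more (right). Ppara, Cpt1a and Cpt2, with 5, 4 and 3 RCAs, fall in the dark end of their bars, which holds 5.94%, 6.03% and 3.08% of genes of similar length. Of the RCAs of Cpt2, only 1 has Cpt2 as its nearest protein-coding gene.

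Over the 13 regions, AUCs ran from 209 to 729.8 with a median of 294, and the median over all RCAs was 278. The lowest AUC of any RCA on the list was 200. Above that median were 9 of the 13, and 4 of the 13 were in the top 10% of all RCAs by AUC. These were the upstream region of Ppara, the later pair at Cpt1a and the region in the exon of 0610037L13Rik beyond Cpt2. Widths ran from 216 to 1139 bp with a median of 407 bp, against 326 bp over all RCAs. The median summit −log10 q was 3.02 at the members and 3.14 overall. By class, 5 regions were intronic, 4 intergenic, 3 of the promoter class and 1 exonic, which are shares of 38.5%, 30.8%, 23.1% and 7.69%. Over all RCAs the shares were 40.0%, 30.3%, 19.4% and 10.2%. An RCA within 200 bp of a start site of the gene itself was present at 2 members, Ppara and Cpt1a, and at 5.94% of protein-coding genes, and only at Cpt1a was that start the first of the gene. For 7 of the 13 regions, the next control region along the chromosome was also an RCA, while this held for 41.9% of all RCAs. With an AUC of at least 300 required, 5 of the 13 regions were left. Of these, 3 were at Cpt1a, 1 at Ppara, 1 at Cpt2 and none at Fgf21. Counted by gene, 3 of the 8 members and 12.9% of protein-coding genes kept an RCA. Among the 5 regions, the lowest AUC, 304, stood at percentile 60.5 of all RCAs.

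**Figure D3:**
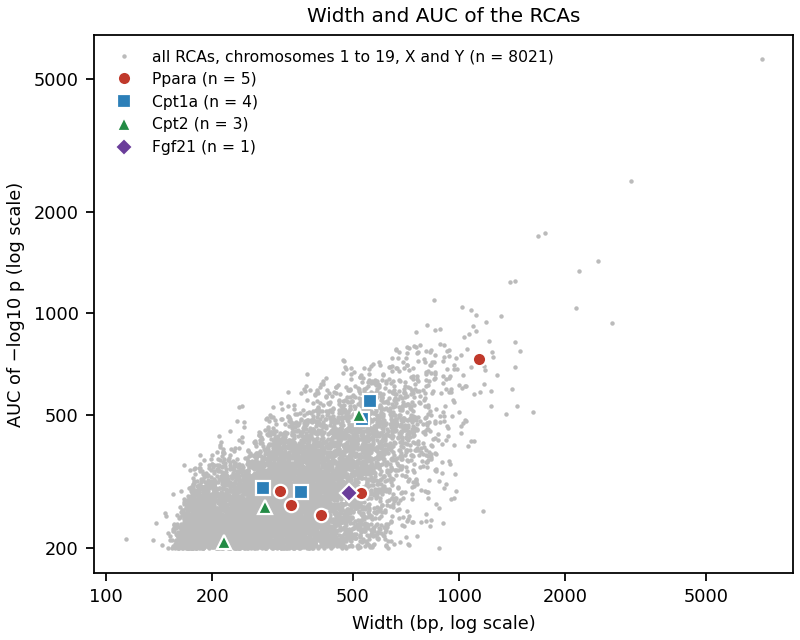
Width in bp (x axis, log scale) and AUC of −log10 p (y axis, log scale) of the 8021 RCAs on chromosomes 1 to 19, X and Y (grey points), with the 13 regions of Ppara, Cpt1a, Cpt2 and Fgf21 as coloured marks. The member regions spread over the body of the cloud from an AUC of 209 to 547, and the upstream region of Ppara, at 1139 bp and 729.8, sits apart toward the upper right.

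The base composition of the member regions was described beside that of all RCAs. G and C made up 42.5% (Fgf21) to 55.2% (the Cpt1a start site) of their bases, and the medians over all RCAs were 60.05% in the promoter class, 50.5% in introns and 50.6% in intergenic sequence. The observed number of CpG dinucleotides was 0.442 times that expected from the base content at the Cpt1a start site, the highest value of the 13, against a median of 0.624 for promoter RCAs. In the upstream region of Ppara the ratio was 0.102, and the weakest region beyond Cpt2 held no CpG. Repeat-masked bases made up from 0% to 19.4% of a region, the highest at Fgf21, with a median of 5.99% over all RCAs.

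Windows of 300 bases centred on each summit were searched on both strands for binding-site letters, and the same windows of 8021 RCAs served as the background. A DR1 match with up to 2 mismatches was in 4 of the 13 windows and in 11.6% (95% Wilson interval 10.9% to 12.3%) of all windows. Ppara held 3 of these 4 windows, and Cpt1a the other. The window with a match of only 1 mismatch was the last intronic region of Ppara, where it read AGGTCACAGGTAA on the minus strand, and none matched without mismatch. At Cpt1a the DR1 match lay in the 5′ UTR, on the minus strand from 3322376 to 3322388, and read AGCTCTGAGGTCA. A DR4 match with up to 2 mismatches was in 2 windows, both at Ppara, and in 6.08% of all windows. In the upstream region of Ppara, a DR1 and a DR4 match lay at −38 and 13 bases from the summit, as the capitals in its sequence show. The bare hexamer AGGTCA was in 8 windows (30.05% of all windows) at Ppara, Cpt1a and Cpt2, and overlapped a DR1 or DR4 match in 3 of them. The GC box, bound by SP1, was in 1 window, at Ppara (17.7% of all windows), and the one printed for the Cpt1a promoter lies outside the searched window. The C/EBP core was in 3 windows (18.4%) and the E-box in 1 (7.47%). The Fgf21 window held none of these letters. DR1-like letters are also bound by HNF4A, and a match describes letters only, not binding.

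The wider pathway was described with 43 other genes of fatty acid oxidation and ketogenesis, a list put together with earlier results of these data known. RCAs lay within 10 kb of 26 of them (60.5%, 95% Wilson interval 45.6% to 73.6%), 49 regions counted by gene, beside 25.1% of protein-coding genes. This background was not matched to the list for gene length or activity in liver. At a start site of the gene itself, 10 of the 43 had an RCA, beside 5.94% of protein-coding genes. By role, an RCA lay near 2 of 3 genes of mitochondrial entry, 7 of 13 of mitochondrial oxidation, 5 of 8 of peroxisomal oxidation, 3 of 4 of uptake and activation, 5 of 9 of the regulators and targets, and 0 of 2 of ω-oxidation. The remaining 4 genes of the list are in the totals and are not reported by role here. With an AUC of at least 300 required, 16 of the 43 genes kept an RCA, beside 12.9% of protein-coding genes.

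Acox2, the peroxisomal branched-chain oxidase, had 3 RCAs of the promoter class with AUCs of 305, 269.6 and 279. Rxra, the partner of the receptor encoded by Ppara, had 4 intronic RCAs, the strongest from 27681802 to 27682650 on chromosome 2, with an AUC of 637. Fabp1, the liver fatty acid binding protein, had 3, of which the region at its start site reached 388. Angptl4, an inhibitor of lipoprotein lipase and a target of PPARα, had an RCA over its start site with an AUC of 899 and a further one with 319.8.

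Of the coactivator genes, Ppargc1b was named for its number of RCAs and Ppargc1a for having a region found only in the Alb-D2KO call. Their contrast therefore follows in part from how they were picked. Ppargc1b had 5 RCAs, all intronic, with AUCs from 259.5 to 444. Ppargc1a had no RCA within 10 kb and 1 intronic region found only in the Alb-D2KO call, on chromosome 5 from 51527874 to 51528280 with an AUC of 300.5. Ppargc1a was the only one of the 43 genes with a region of that list, beside 1.01% of protein-coding genes. It is 113477 bp long, and the share at genes of that length was not counted.

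For comparison, 8 genes of fatty acid synthesis (Acaca, Acacb, Fasn, Scd1, Elovl6, Acly, Srebf1, Me1) were counted in the same way. RCAs lay within 10 kb of 5 of them (62.5%, 95% Wilson interval 30.6% to 86.3%), 11 regions in all, beside 25.1% of protein-coding genes, and no gene had more than 3. The interval overlaps that of the 8 oxidation genes, and the difference between the lists was not tested. Neither the background nor the oxidation genes were matched to this list for length. The longest synthesis gene, Acaca, has 271980 bp, and the longest member, Ppara, has 67837 bp.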

How the data were processed

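ATAC-seq of 8 adult mouse liver samples (4 control, 4 Alb-D2KO) was deposited as 2 region lists. The authors trimmed reads with NGmerge, aligned them to mm10 with BWA 0.7.17, filtered out duplicate, chimeric, supplementary and low-quality alignments, and called regions with Genrich 0.6 on grouped libraries. The few regions called in single libraries had been judged not to reflect accessibility, and were merged and excluded from that call. Regions overlapping a region of the other genotype were subtracted. The deposited signal is the area under the curve of −log10 p over a region. The deposited −log10 q is that of the summit. The deposited score is the area per base, capped, and was used only for a check. The deposited summit offset (other) gave the summit position.

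Regions were assigned with Python 3.11.15 and GENCODE M21 (GRCm38), which is not the release the paper used, by an overlap of at least 1 bp, as promoter (within 200 bp of a start site), exon, intron or intergenic, in that order. Gene windows were the body and 10 kb on each side. Counting was tested on simulated regions. All 18 annotated start codons of the members read ATG in the genome. No test was possible, since no value per animal exists. Members and lists were chosen with earlier results of these data known. Genes named were the 8 members, the 6 wider-list genes with the most RCAs, any with an Alb-D2KO-only region, 2 enzyme genes fixed by name, and genes that a member's region overlaps or lies near. Alternatives changed the window, AUC, q, width, merging, overlap, assignment, promoter window, length tolerance and mismatches. Some genes that this rule names are not reported here.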

Additional observations from a re-analysis of the deposited data

How the results depend on the processing

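The lists are pooled calls, so leaving out a library was not possible. No paired analysis was possible because the result comes from no test and no column holds a single animal. Acadm, Acadl and Hadha had no RCA and no member had an Alb-D2KO-only region under any window or filter tried. Of the alternative values for the main results, 51 stayed within 1.5 times the reported count or median, or inside the 95% interval of the reported share, and 27 did not.

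For the gene body alone, 5 kb and 50 kb, the share of protein-coding genes with an RCA was 15.7%, 21.1% and 44.3%, and that of genes of similar length (27.5% as reported, over 8316 genes) was 18.3%, 23.4% and 47.9%. The 13 RCAs became 8 for the body alone and 21 at 50 kb, where Ppara had 11 and Ehhadh 2. With an AUC of at least 300, 5 RCAs were left at 3 member genes (median AUC 498), 1 of the promoter class and 1 with a DR1 match. The shares of genes were then 12.9% and 13.9%, with 16 wider-list genes. With a q of at most 0.001, 7 were left at 3 member genes (median 487), 1 of the promoter class. The shares of genes at this q were 19.6% and 21.3%. With a width of at least 200 bp the shares were 22.1% and 24.4%. All annotated genes gave 15.3%, and a length tolerance of 50% gave 26.2%. A promoter window of 3000 bp gave 9 promoter regions. DR1 matches were in 1 region with 1 mismatch and in 0 with none. Scanning whole regions, an alternative chosen after seeing the data, kept 4 regions, and 13.6% of all RCAs. The cause of these shifts was not tested beyond the fewer or more regions that each setting admits.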

Other observations

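Among wider-list genes outside the naming rule, chosen here after their values were seen, Creb3l3, which encodes a hepatic transcription factor active in fasting, had an RCA 1215 bp wide with an AUC of 826, in an annotated exon 949 bp outside the gene, and another of the promoter class with an AUC of 346. Crat, the carnitine acetyltransferase gene, had an exonic RCA with an AUC of 601 and one of the promoter class with an AUC of 548. Slc25a20, the carnitine-acylcarnitine carrier that works between Cpt1a and Cpt2, had 2 RCAs of the promoter class, with AUCs of 345 and 516, but their edges lay 7193 and 7741 bp past its 3′ end. Hadhb, the gene that lies beside Hadha and encodes the other subunit of the trifunctional protein, had no RCA, and neither did Acadvl, Echs1, Etfa, Etfb or Etfdh. The other 7 of the 13 mitochondrial oxidation genes on the wider list had an RCA within 10 kb. Among all protein-coding genes, 25.1% had one, so most had none.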
